A study of Mus musculus with 8 samples.

Results

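The genes described here are 9 enzymes of the tricarboxylic acid (TCA) cycle and of 2-oxoglutarate production: Cs, Idh3a, Ogdh, Sucla2, Fh1, Mdh2, Idh1, Idh2 and Mdh1. They were chosen by name, from their place in the pathway, and are 9 of the 53700 genes in the count table. RNA-Seq was performed on cultured LLC cells, a mouse line from a Lewis lung carcinoma, as wild-type (WT) or FIH-KO cells. FIH-KO cells carry a CRISPR/Cas9 edit in exon 2 of Hif1an, the gene for the oxygen-dependent asparagine hydroxylase FIH. The sources used here do not say whether the WT cells went through a control transfection. Both genotypes grew in the same DMEM medium with serum and were kept in normoxia (21% O2) or hypoxia (1% O2) during 16 hours, with 2 libraries in each of the 4 groups. FIH-KO cells were obtained by single-cell dilution after the edit, so that genotype and clone cannot be told apart. No source used here says that the 2 libraries of a group came from separate cultures, and the p values therefore measure only the spread between these libraries, which may be technical.

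In the mitochondrion, citrate synthase joins acetyl-CoA to oxaloacetate, and the cycle then passes through isocitrate, 2-oxoglutarate, succinyl-CoA, succinate, fumarate and malate. FIH and the other 2-oxoglutarate-dependent dioxygenases, among them the HIF prolyl hydroxylases and many histone and DNA demethylases, use 2-oxoglutarate and oxygen as substrates, and succinate and fumarate inhibit several of them. Tumor cells in low oxygen are known to send less pyruvate into the cycle and to draw more 2-oxoglutarate from glutamine, part of which the NADP-dependent isocitrate dehydrogenases can carry backward to citrate. The data here are transcript levels, and neither enzyme activity nor metabolites were measured by these libraries.

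The starts of these genes are shown because 5 of them, Ogdh, Sucla2, Fh1, Mdh2 and Idh2, passed the test as lower in hypoxia in both genotypes, and because Idh1 differed between the genotypes. Each sequence is the 250 bases before an annotated RefSeq start in GRCm38.p6, written 5′ to 3′ on the strand of the gene. Capitals mark the letters of the searched motifs. They lie at chr11:6291347-6291596 (Ogdh, plus strand, the first of 6 annotated starts), chr14:73552536-73552785 (Sucla2, plus), chr1:175625636-175625885 (Fh1, minus), chr5:135778399-135778648 (Mdh2, plus), chr7:80115351-80115600 (Idh2, minus) and chr1:65186480-65186729 (Idh1, minus, the first of 2 annotated starts).
Ogdh: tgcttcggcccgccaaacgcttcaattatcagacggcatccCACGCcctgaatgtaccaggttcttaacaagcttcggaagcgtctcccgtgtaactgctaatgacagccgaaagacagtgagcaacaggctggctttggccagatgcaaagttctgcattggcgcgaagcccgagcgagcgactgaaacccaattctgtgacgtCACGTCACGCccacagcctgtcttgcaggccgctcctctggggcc
Sucla2: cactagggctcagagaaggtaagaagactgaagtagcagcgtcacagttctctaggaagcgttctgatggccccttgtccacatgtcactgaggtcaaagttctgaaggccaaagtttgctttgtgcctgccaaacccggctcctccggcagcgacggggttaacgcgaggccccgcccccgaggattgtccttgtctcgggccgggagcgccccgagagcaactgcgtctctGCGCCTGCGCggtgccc
Fh1: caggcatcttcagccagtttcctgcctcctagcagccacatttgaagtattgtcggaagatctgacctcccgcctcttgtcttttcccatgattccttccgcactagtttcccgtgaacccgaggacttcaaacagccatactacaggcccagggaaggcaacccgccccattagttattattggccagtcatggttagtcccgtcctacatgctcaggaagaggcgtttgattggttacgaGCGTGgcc
Mdh2: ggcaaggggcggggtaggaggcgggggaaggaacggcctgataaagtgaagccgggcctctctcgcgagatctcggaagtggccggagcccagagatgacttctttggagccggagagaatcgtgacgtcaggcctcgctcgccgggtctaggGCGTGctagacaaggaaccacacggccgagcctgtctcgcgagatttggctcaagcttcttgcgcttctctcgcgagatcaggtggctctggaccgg
Idh2: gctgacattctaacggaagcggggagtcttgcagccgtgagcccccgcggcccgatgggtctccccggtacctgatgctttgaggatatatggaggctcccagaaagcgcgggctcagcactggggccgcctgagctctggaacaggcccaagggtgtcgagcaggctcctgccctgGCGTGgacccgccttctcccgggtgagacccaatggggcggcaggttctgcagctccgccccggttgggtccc
Idh1: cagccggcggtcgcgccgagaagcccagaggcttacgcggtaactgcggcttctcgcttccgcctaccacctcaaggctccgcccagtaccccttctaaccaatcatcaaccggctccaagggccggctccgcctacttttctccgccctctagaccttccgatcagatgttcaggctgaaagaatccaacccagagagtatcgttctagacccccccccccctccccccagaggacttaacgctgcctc

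RefSeq windows were found for 8 of the 9 genes. Idh3a had none. The motifs were searched on both strands. They were the core of the hypoxia response element (ACGTG or GCGTG), the E-box CACGTG, which contains ACGTG and so counts under both, the half-site of the estrogen-related receptors (AAGGTCA) and an NRF1 motif (GCGC and TGCGC with any base between them). The hypoxia response core was found 3 times in the Ogdh window shown and 1 time each in those of Fh1, Mdh2, Idh2 and Mdh1. It was not found in the window of Cs, in that of Sucla2 or in the Idh1 window shown, and the second Idh1 window held it 1 time. These letters are common: 38.6% of 32851 windows of the same length held the core. The E-box was found in 3 of the 6 Ogdh windows, which overlap each other in part, against 6.02% of all windows. The NRF1 motif was found in the Sucla2 window only, against 3.74% of all windows, and the estrogen-related receptor half-site in no window of these genes, against 4.08%. A match is a description of the letters and does not show binding.

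Library totals ran from 14519731 to 18177016 counts, and 13933 genes, all 9 enzymes among them, passed the filter on low counts and were tested. Levels are given as CPM, read counts scaled to library size with TMM factors. Log2 fold changes with their standard errors (SE) come from 1 edgeR quasi-likelihood model over the 8 libraries, and the adjusted p values are Benjamini-Hochberg values over the whole of the tested table. A gene was called at an adjusted p under 0.05. Hif1an was lower in FIH-KO libraries, with 34.8 to 51.0 CPM, than in WT libraries, with 82.3 to 90.2 CPM. Of 12 HIF target genes, 12 rose with hypoxia in WT cells and 11 in FIH-KO cells, where 16.9% and 8.84% of all tested genes were called higher. The exception was Car9, with 2 to 49 reads per library and a value of -0.22 in FIH-KO cells (adjusted p = 0.88). Between the genotypes 2 of the 12 were called higher and 1 lower in FIH-KO cells in normoxia, and 5 higher and 1 lower in hypoxia. The shares over all tested genes were 15.2% higher and 13% lower in normoxia, and 14.1% and 13.9% in hypoxia. The 1 called lower in hypoxia was Car9, at -3.33 (adjusted p = 0.00083). Of the epithelial markers Krt8 and Krt18 were abundant, while Epcam had 0 reads and Cdh1 at most 1 in every library. The 5 epithelial markers summed to 326 to 352 CPM in WT and 436 to 538 CPM in FIH-KO normoxia, and to 226 to 283 and 334 to 447 CPM in hypoxia. Krt8 was at 104 to 151 CPM in WT and 216 to 332 CPM in FIH-KO libraries, whereas Krt18 overlapped between the genotypes. Krt18 held 173.6 and 200.9 CPM in WT and 204.9 and 157.7 in FIH-KO normoxia. In hypoxia it held 132.5 and 116.7 CPM in WT and 160.5 and 110.2 in FIH-KO cells. The alveolar markers Sftpc and Nkx2-1 were at 0 reads throughout. Among the leukocyte markers Adgre1 and Cd3e were at 0 reads, and the 5 leukocyte markers together stayed between 2.70 and 9.12 CPM. The 5 fibroblast and mesenchymal markers, nearly all Vim, summed to 3213 to 4007 CPM in WT libraries and to 4715 to 5450 CPM in FIH-KO libraries. Pdgfra went the other way, from 27.4 and 25.1 CPM in WT to 17.0 and 17.4 in FIH-KO normoxia, and from 14.8 and 22.7 to 6.93 and 13.5 in hypoxia. The part of these markers in the genotype results was not tested.

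The abundance of the 9 transcripts was compared in WT normoxia per kilobase of exon, counted over the union of all annotated exons in GENCODE for GRCm39. Cs was the most abundant, at 81.4 CPM per kb, followed by Mdh2 at 72.1, Mdh1 at 43.9, Ogdh at 36.2, Idh1 at 28.4, Idh2 at 15.6, Idh3a at 13.7, Fh1 at 12.6 and Sucla2 at 8.62. The 2 WT normoxia libraries of neighbours in this order did not overlap. The order depends on the length used. With the length of the canonical transcript, a choice made after seeing the data, Mdh2 came first at 258 CPM per kb and Cs followed at 175, Idh2 moved up to the fourth place at 75.5 and Ogdh down to the sixth at 49.8, and Fh1 was lowest at 23.9.

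**Figure D1:**
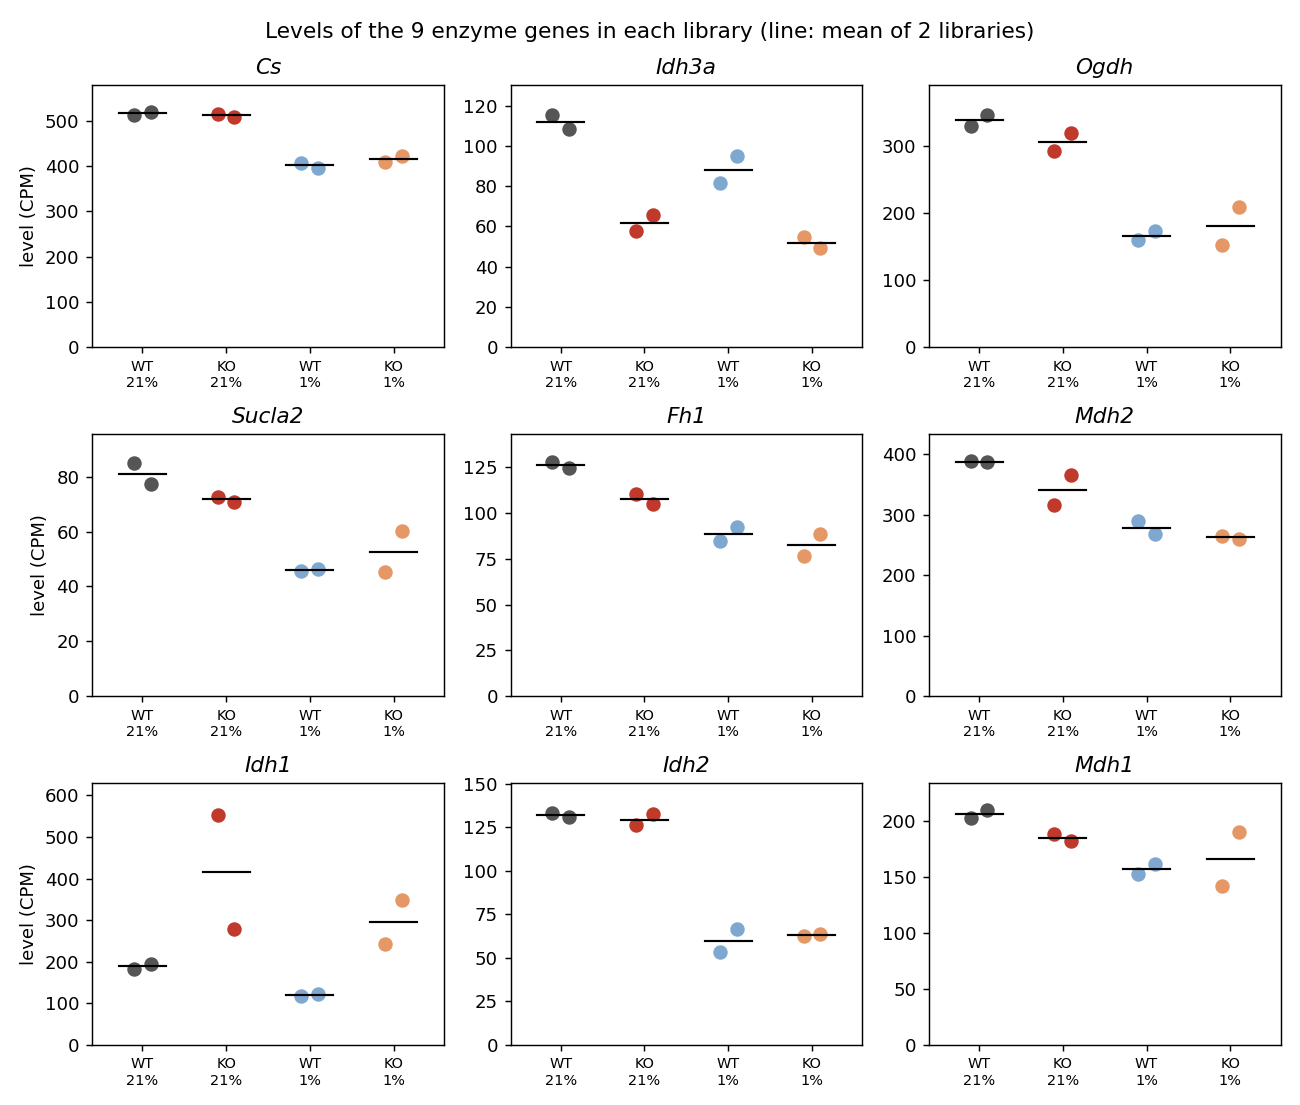
Level in CPM (y axis, from 0) of each of the 9 enzyme genes in every library, by group (WT or FIH-KO, 21% or 1% O2); each point is a library and each line the mean of 2. For Ogdh, Idh2, Sucla2, Fh1, Mdh2 and Cs the libraries at 1% O2 lie below those at 21% O2 in both genotypes. Idh3a and Idh1 separate by genotype, and Idh3a is also lower at 1% O2 within each genotype.

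Low oxygen was the condition with which most of the 9 moved. In WT cells 8 of the 9 enzymes fell with hypoxia and 0 rose, against 15.5% of all tested genes called lower and 16.9% called higher, and their median log2 fold change was -0.51, beside -0.0011 over all tested genes. The member that was not called, Idh1, had a log2 fold change of -0.66 (SE 0.25, adjusted p = 0.062). Over the other settings that kept all compared libraries, Idh1 had adjusted p values from 2.8e-06 to 0.19. It was called when the 4 WT libraries were fitted alone (-0.65, adjusted p = 0.0001), when any of the 4 FIH-KO libraries was left out, and with no filter on low counts. In FIH-KO cells 5 of 9 fell and 0 rose, against 8% called lower and 8.84% called higher in the background, with a median of -0.39 beside -0.03 over all genes. The 5 were Ogdh, Sucla2, Fh1, Mdh2 and Idh2, all also called in WT cells, and 6.33% of all tested genes were called lower in both genotypes. The 2 hypoxia libraries lay below the 2 normoxia libraries for 9 of 9 enzymes in WT cells and 7 of 9 in FIH-KO cells, where 35.6% and 29.3% of all tested genes did so.

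Idh2, the mitochondrial NADP-dependent isocitrate dehydrogenase, which can run in either direction, fell most. It lies on the minus strand of chromosome 7 of GRCm39 from 79741431 to 79765535 (ENSMUSG00000030541.17). Its levels were 133.0 and 130.9 CPM in WT normoxia and 53.4 and 66.4 in WT hypoxia. In FIH-KO cells they were 126.5 and 132.4 CPM in normoxia and 62.3 and 63.8 in hypoxia. Every hypoxia library thus held less Idh2 than every normoxia library, and WT and FIH-KO libraries overlapped at each oxygen level. The log2 fold change with hypoxia was -1.14 in WT cells (SE 0.12, adjusted p = 4.6e-05), so that Idh2 fell by 54.7%, and -1.04 in FIH-KO cells (SE 0.12, adjusted p = 0.0002). Zfp710, on the opposite strand, overlaps Idh2 and had 340 to 554 reads, beside 952 to 2366 of Idh2. The strand setting of the counting is not given in the sources used here.

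Ogdh encodes the E1 component of the 2-oxoglutarate dehydrogenase complex, which turns 2-oxoglutarate into succinyl-CoA, and lies on chromosome 11 at 6241551 to 6309233, plus strand (ENSMUSG00000020456.18). WT libraries held 331.1 and 346.5 CPM in normoxia and 159.6 and 173.2 in hypoxia. FIH-KO libraries held 292.5 and 319.6 CPM in normoxia and 152.0 and 209.8 in hypoxia. The hypoxia libraries again lay below all normoxia libraries, and those of FIH-KO cells in hypoxia differed most from each other. The log2 fold change was -1.03 in WT cells (SE 0.14, adjusted p = 0.0003) and -0.76 in FIH-KO cells (SE 0.14, adjusted p = 0.004). The reads of Ogdh over those of Dlst, the E2 component of the same complex, were 1.52 and 1.60 in the WT normoxia libraries and 0.87 and 0.95 in WT hypoxia. This ratio was 1.58 and 1.69 in FIH-KO normoxia and 0.94 and 1.35 in FIH-KO hypoxia, so that it was lower in every hypoxia library than in the normoxia libraries of its genotype.

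Sucla2 is the ATP-forming beta subunit of succinyl-CoA ligase, on chromosome 14 at 73762759 to 73834335, plus strand (ENSMUSG00000022110.14). Its levels were 85.0 and 77.2 CPM in WT normoxia and 45.8 and 46.2 in WT hypoxia. In FIH-KO cells they were 72.8 and 70.9 CPM in normoxia and 45.1 and 60.1 in hypoxia. The fall in WT cells was larger than the spread of the libraries, with a log2 fold change of -0.82 (SE 0.14, adjusted p = 0.001). In FIH-KO cells it was -0.45 (SE 0.14, adjusted p = 0.043), a call that was lost when any of 7 of the 8 libraries was left out. The difference between the genotypes in the response to hypoxia was 0.37 on the log2 scale (95% interval -0.05 to 0.79, adjusted p = 0.78).

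Fh1, fumarate hydratase, a tumor suppressor in the kidney, is on the minus strand of chromosome 1 from 175425290 to 175453205 (ENSMUSG00000026526.15). It held 127.8 and 124.8 CPM in WT normoxia and 84.7 and 92.4 in WT hypoxia, and 110.7 and 105.1 in FIH-KO normoxia and 76.4 and 88.5 in FIH-KO hypoxia. Within each genotype the hypoxia libraries were the lower ones. The log2 fold changes were -0.51 (SE 0.11, adjusted p = 0.0046) in WT cells and -0.39 (SE 0.11, adjusted p = 0.033) in FIH-KO cells. The second of these was lost when any of 6 libraries was left out.

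Mdh2, the mitochondrial malate dehydrogenase that closes the cycle, is on chromosome 5 at 135807292 to 135820882, plus strand (ENSMUSG00000019179.11). Its WT libraries held 388.1 and 387.5 CPM in normoxia and 289.8 and 267.8 in hypoxia, and its FIH-KO libraries 315.3 and 365.1 in normoxia and 264.3 and 260.3 in hypoxia. It was lower in hypoxia in each genotype without overlap. The log2 fold change was -0.48 in WT cells (SE 0.11, adjusted p = 0.0068) and -0.38 in FIH-KO cells (SE 0.11, adjusted p = 0.037). The WT call was lost without the second WT hypoxia library (adjusted p = 0.065), and the FIH-KO call when any of 7 libraries was left out. With the 4 FIH-KO libraries fitted alone, Mdh2, Fh1 and Sucla2 were not called, at adjusted p values of 0.16, 0.14 and 0.14.

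Cs, citrate synthase, on chromosome 10 at 128172837 to 128198363, plus strand (ENSMUSG00000005683.9), differed little between replicates. It held 513.2 and 520.8 CPM in WT normoxia, 407.7 and 396.3 in WT hypoxia, 515.3 and 509.0 in FIH-KO normoxia, and 408.6 and 421.8 in FIH-KO hypoxia. The hypoxia libraries were all below the normoxia libraries. In WT cells Cs fell by 22.2%, with a log2 fold change of -0.36 (SE 0.10, adjusted p = 0.018). The value in FIH-KO cells was -0.30 (SE 0.10, adjusted p = 0.064), which edgeR did not call and DESeq2 did (adjusted p = 0.030).

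Mdh1, the cytosolic malate dehydrogenase of the malate-aspartate shuttle, is on the minus strand of chromosome 11 from 21506423 to 21522367 (ENSMUSG00000020321.17). Its levels were 202.6 and 209.8 CPM in WT normoxia, 153.1 and 161.4 in WT hypoxia, 188.2 and 182.0 in FIH-KO normoxia, and 141.9 and 190.3 in FIH-KO hypoxia. The last group overlapped its normoxia libraries. Mdh1 fell with hypoxia in WT cells by 0.39 on the log2 scale (SE 0.13, adjusted p = 0.039), and the value in FIH-KO cells was -0.16 (SE 0.13, adjusted p = 0.46). The WT calls of Mdh1, Cs and Idh3a were each lost when any of the 4 WT libraries was left out, with adjusted p values up to 0.15, 0.10 and 0.22.

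**Figure D2:**
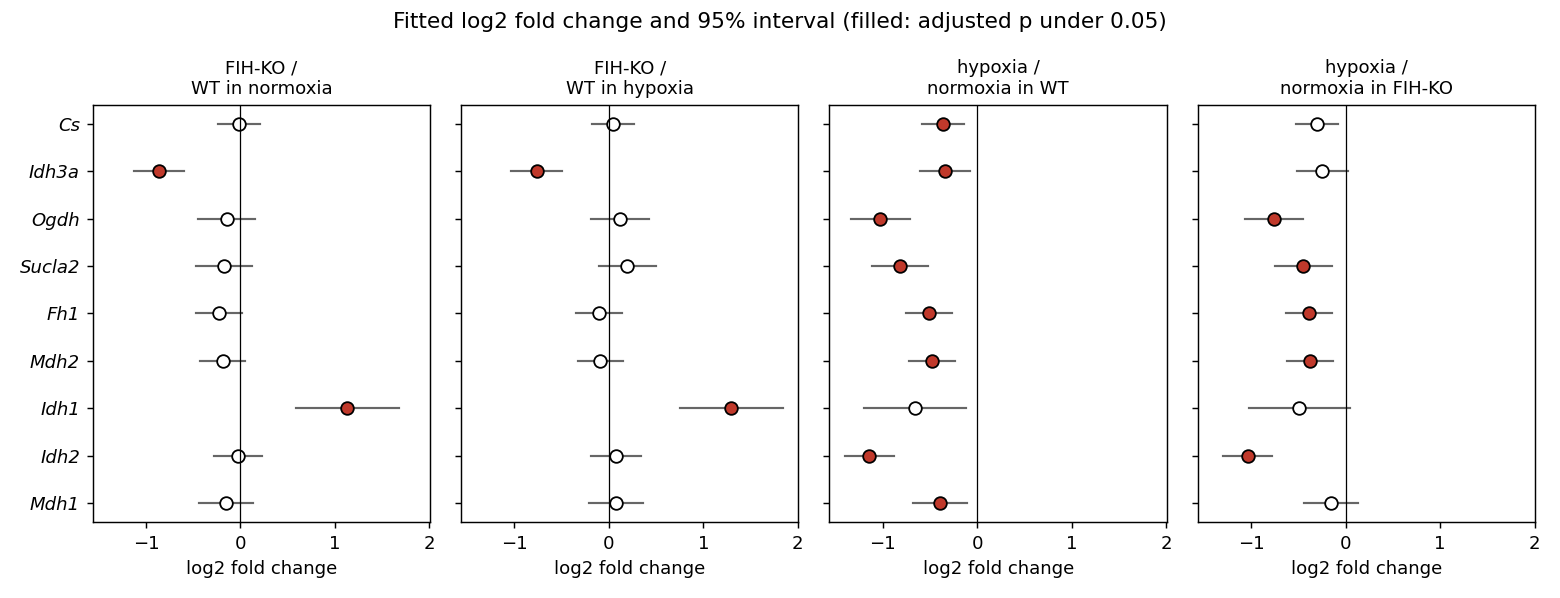
Fitted log2 fold change (x axis) of each enzyme gene in the 4 comparisons, with its 95% interval; filled points had an adjusted p under 0.05. In the hypoxia comparisons all 9 points lie below 0, and in the genotype comparisons only Idh3a, to the left, and Idh1, to the right, are filled.

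The genotype comparison gave a different picture, since 7 of the 9 enzymes were not called in either oxygen condition. FIH-KO cells had more Idh1 and less Idh3a than WT cells in normoxia, and so they had in hypoxia. Thus 1 of 9 was called higher and 1 of 9 lower in each condition, against a background of 15.2% higher and 13% lower in normoxia and of 14.1% and 13.9% in hypoxia. The share called, 2 of 9, is near the 28.2% of all genes in normoxia and the 28% in hypoxia. Both enzymes were called in the same direction in both conditions, as were 18.7% of all tested genes.

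Idh1 is the NADP-dependent isocitrate dehydrogenase of the cytosol and peroxisomes, a source of NADPH and the enzyme that is mutated in gliomas. It is on the minus strand of chromosome 1 from 65196781 to 65225721 (ENSMUSG00000025950.17). WT libraries held 183.5 and 194.8 CPM in normoxia and 116.9 and 122.9 in hypoxia. FIH-KO libraries held 551.7 and 278.7 CPM in normoxia and 242.4 and 347.4 in hypoxia. Each FIH-KO library was above every WT library, but the FIH-KO libraries of a group were far apart, and no other member had a spread as large. The log2 fold change in FIH-KO cells was 1.13 in normoxia (SE 0.25, adjusted p = 0.0054), a 2.19-fold level, and 1.30 in hypoxia (SE 0.25, adjusted p = 0.0027), a 2.46-fold level. The normoxia call rested on single libraries: without the first FIH-KO library, the one at 551.7 CPM, the log2 fold change was 0.54, and it was no longer called without that library or without the first WT library. The hypoxia call held with every library left out in turn. The response of Idh1 to hypoxia within FIH-KO cells was -0.49 (SE 0.25, adjusted p = 0.20) and was not called.

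Idh3a is the catalytic alpha subunit of the NAD-dependent isocitrate dehydrogenase, which makes 2-oxoglutarate in the forward cycle, and lies on chromosome 9 at 54493575 to 54514730, plus strand (ENSMUSG00000032279.12). It held 115.2 and 108.6 CPM in WT normoxia and 57.7 and 65.5 in FIH-KO normoxia. In hypoxia the levels were 81.5 and 95.03 CPM in WT cells and 54.6 and 49.2 in FIH-KO cells. All 4 FIH-KO libraries lay below all 4 WT libraries. The log2 fold change in FIH-KO cells was -0.86 in normoxia (SE 0.12, adjusted p = 0.00039), so that Idh3a fell by 44.9%, and -0.77 in hypoxia (SE 0.12, adjusted p = 0.00093). Both calls held with every library left out in turn and under all 7 other settings tried. The response to hypoxia was smaller, at -0.34 in WT cells (SE 0.12, adjusted p = 0.047) and -0.25 in FIH-KO cells (SE 0.12, adjusted p = 0.20).

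The alpha subunit was compared with its partners in each library. The reads of Idh3a over those of Idh3b, the beta subunit, were 0.78 and 0.73 in WT normoxia and 0.76 and 0.92 in WT hypoxia, beside 0.38 and 0.46 in FIH-KO normoxia and 0.47 and 0.47 in FIH-KO hypoxia. Over Idh3g, the gamma subunit, the ratio was 1.07 to 1.36 in WT libraries and 0.49 to 0.64 in FIH-KO libraries. The alpha subunit was thus lower relative to both partners in every FIH-KO library, and neither Idh3b nor Idh3g was called between the genotypes. The reads of Idh1 over those of Idh2 moved the other way: 1.38 and 1.49 in WT normoxia, 2.19 and 1.85 in WT hypoxia, 4.36 and 2.10 in FIH-KO normoxia, and 3.89 and 5.45 in FIH-KO hypoxia. The FIH-KO libraries lay above the WT libraries at 21% and at 1% O2, and the WT hypoxia libraries above the WT normoxia libraries. Such ratios compare reads, not molecules, since the transcripts differ in length.

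**Figure D3:**
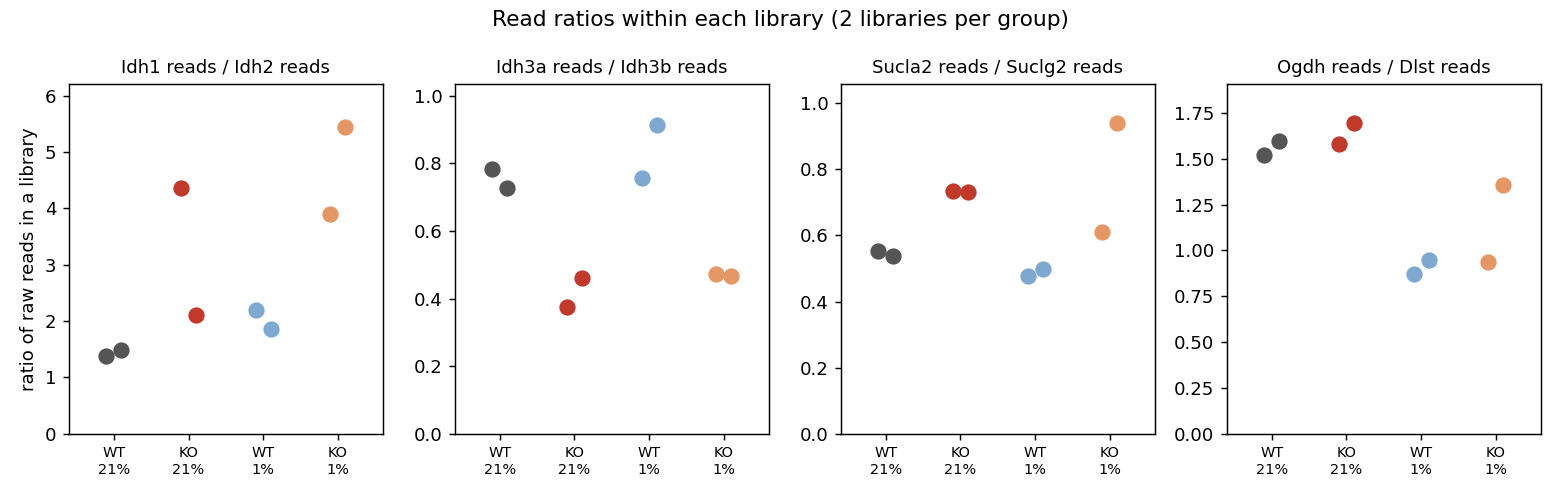
Ratio of the reads of a pair of genes within each library (y axis, no unit, from 0), by group; each point is a library. Idh1 over Idh2 is higher and Idh3a over Idh3b lower in FIH-KO libraries, and Ogdh over Dlst is lower at 1% O2.

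The genomic surroundings of the 2 genes that differed by genotype were examined after these values were seen. All 10 tested genes nearest to Idh3a had a log2 fold change below 0 in FIH-KO cells in both conditions. Of these 10, 8 were called lower in normoxia and 7 in hypoxia, against 13% and 13.9% of all tested genes. The median of the 10 neighbours was -0.51 in normoxia and -0.74 in hypoxia, beside -0.17 and -0.16 over the other 771 tested genes of chromosome 9. Among them were Ireb2, an iron-responsive RNA-binding protein, at -0.44 and -0.43, Psma4, a proteasome subunit, at -0.52 and -0.26, and Crabp1, a retinoic acid binding protein, at -3.54 and -4.93. Around Idh1 the 10 nearest genes had medians of 0.19 and -0.04, with 2 called higher and 1 lower in normoxia and 0 higher and 2 lower in hypoxia. The shares over all tested genes were 15.2% higher and 13% lower in normoxia, and 14.1% and 13.9% in hypoxia. Whether a change of the chromosome in the FIH-KO cells has a part in the Idh3a result was not tested. Acsbg1, which overlaps Idh3a on the opposite strand with 14 to 386 reads, had values of -0.40 (adjusted p = 0.74) and -0.79 (adjusted p = 0.28).

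**Figure D4:**
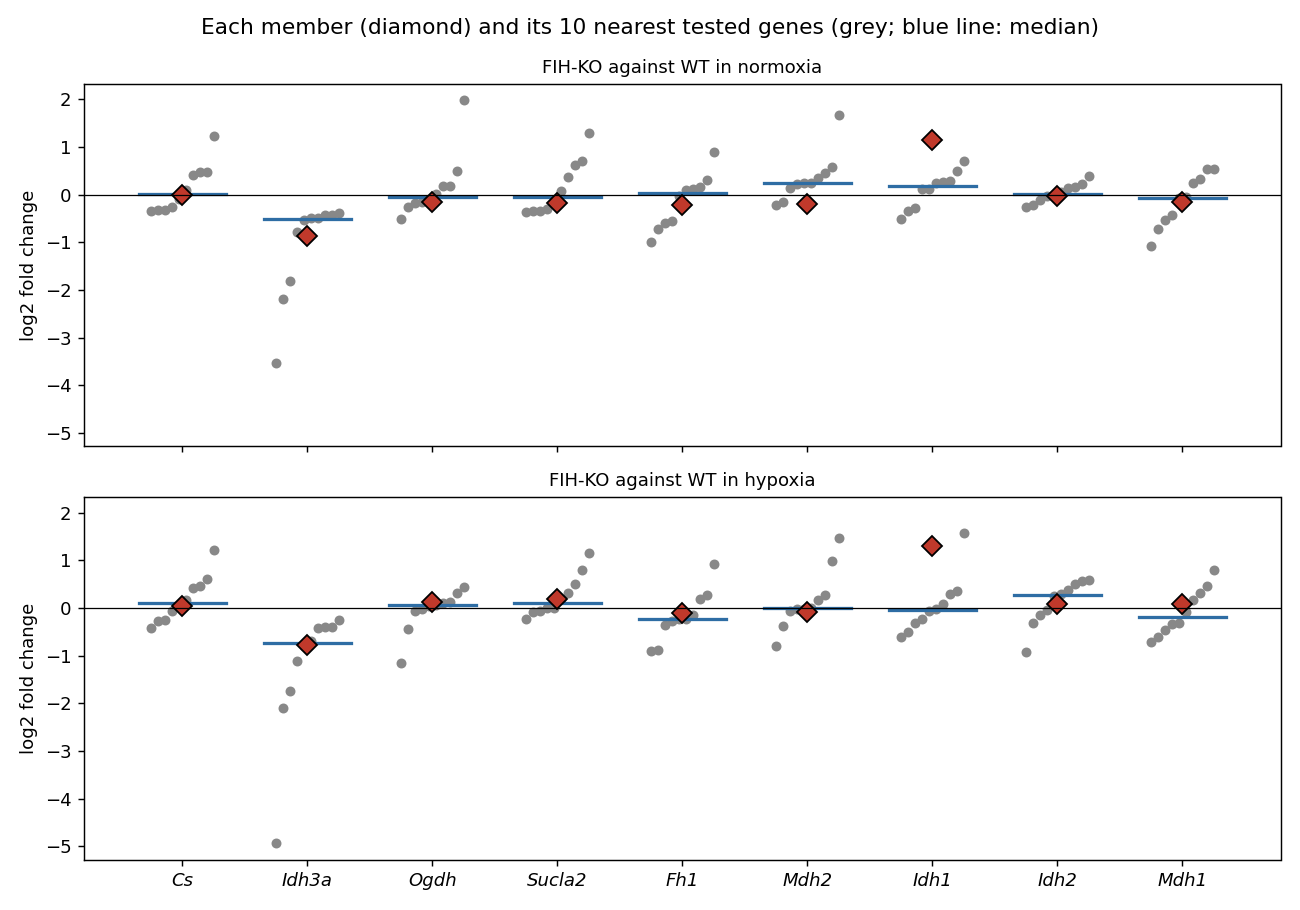
Log2 fold change of FIH-KO against WT (y axis) for each enzyme gene (diamond) and its 10 nearest tested genes (grey points, with a line at their median), in normoxia (top) and hypoxia (bottom). The neighbours of Idh3a all lie below 0, and Idh1 lies above 9 of its 10 neighbours in hypoxia and above all 10 in normoxia.

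The other 7 enzymes were close between the genotypes. In normoxia Cs differed by -0.01 (95% interval -0.24 to 0.21) and Idh2 by -0.03 (-0.28 to 0.23). In hypoxia the values were 0.05 (-0.18 to 0.27) for Cs and 0.08 (-0.19 to 0.34) for Idh2. A p that misses the threshold does not show equal levels, and these intervals give the differences the data allow. Mdh2, Fh1, Sucla2, Mdh1 and Ogdh had rounded normoxia values from -0.23 to -0.15, and their hypoxia values lay from -0.10 to 0.19. The smallest adjusted p of these 10 cases was 0.149, for Fh1 in normoxia. In normoxia the FIH-KO libraries of these 5 genes lay below the WT libraries, as they did for 34.8% of all tested genes. Without the first FIH-KO hypoxia library, 2 further enzymes were called higher in FIH-KO cells in hypoxia, Ogdh by 0.38 (adjusted p = 0.038) and Sucla2 by 0.43 (adjusted p = 0.029).

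Whether the response to hypoxia differed with FIH-KO was tested as an interaction. It was called for 0 of the 9 enzymes and for 0 of all 13933 genes (0%) by edgeR. At an unadjusted p under 0.05 the counts were 0 of 9 and 925 of all genes. DESeq2 called 37 genes. The 9 values were all above 0, from 0.06 for Cs to 0.37 for Sucla2, which on this scale is a smaller fall with hypoxia in FIH-KO cells, but each interval included 0. The effects of hypoxia in the 2 genotypes were thus not shown to differ for any of these enzymes.

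The remaining subunits of the cycle were described from a list of 13 tested genes, and its counts and those of the lists after it stand beside the shares over all tested genes, 15.5% lower and 16.9% higher with hypoxia in WT cells and 8% and 8.84% in FIH-KO cells. With hypoxia 10 of the 13 fell in WT cells and 0 rose, with a median of -0.55, and 8 fell and 0 rose in FIH-KO cells, with a median of -0.42. Sdhd, a membrane anchor of succinate dehydrogenase, fell by 0.87 on the log2 scale in WT cells (SE 0.11, adjusted p = 0.00013). Its value in FIH-KO cells was -0.28 (adjusted p = 0.093) and was not called. The interaction of Sdhd, at 0.59 (adjusted p = 0.35), was not called either. Between the genotypes the list showed 1 gene higher and 2 lower in normoxia and 1 higher and 1 lower in hypoxia, so that 3 and 2 of the 13 were called, where 28.2% and 28% of all genes were. Ogdhl, an Ogdh-like E1 enzyme, was higher in FIH-KO cells in normoxia by 0.60 (adjusted p = 0.0057) and in hypoxia by 0.40 (adjusted p = 0.045). Suclg2, the GTP-forming counterpart of Sucla2, was lower at both oxygen levels, with values of -0.60 (adjusted p = 0.0018) and, in hypoxia, -0.45 (adjusted p = 0.0097). The reads of Sucla2 over those of Suclg2 were 0.55 and 0.54 in WT normoxia and 0.74 and 0.73 in FIH-KO normoxia, and 0.48 and 0.50 in WT hypoxia and 0.61 and 0.94 in FIH-KO hypoxia, so that the ratio was higher in FIH-KO than in WT libraries and below 1 in all 8.

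The genes that bring pyruvate into the cycle did not move as a block. Of 14 tested genes 2 rose and 5 fell with hypoxia in WT cells, with a median of -0.14, and 2 rose and 2 fell in FIH-KO cells, with a median of -0.21. Pdk1, a kinase that switches off pyruvate dehydrogenase, rose by 1.91 (SE 0.20, adjusted p = 4.4e-05) in WT cells and by 3.09 (SE 0.21, adjusted p = 2.9e-06) in FIH-KO cells. The interaction of Pdk1, at 1.18 (adjusted p = 0.32), was not called. Pdk2, another of these kinases, fell by 2.44 (adjusted p = 0.01) in WT and by 2.41 (adjusted p = 0.0039) in FIH-KO cells on the log2 scale, with only 4 to 90 reads per library. Between the genotypes 4 genes were higher and 3 lower in normoxia, and 4 higher and 1 lower in hypoxia, beside shares over all genes of 15.2% higher and 13% lower, and of 14.1% and 13.9%. Pcx, pyruvate carboxylase, which makes oxaloacetate, was higher by 1.15 in FIH-KO cells in normoxia (SE 0.20, adjusted p = 0.0016), and its value in hypoxia was -0.31 (SE 0.21, adjusted p = 0.29). Dlat, the E2 component of pyruvate dehydrogenase, was lower in normoxia, at -0.55 (adjusted p = 0.0028), and in hypoxia, at -0.50 (adjusted p = 0.005). Dlat (50543457 to 50571277) and Sdhd (50507642 to 50515195) lie side by side on chromosome 9. Idh3a (54493575 to 54514730) and Me1 (86462646 to 86578104), a gene of the export and shuttle list, are on the same chromosome. Sdhd was lower in FIH-KO cells in normoxia, at -0.48 (adjusted p = 0.0051), but had a value of 0.11 in hypoxia (adjusted p = 0.47). Me1 had values of 0.19 (adjusted p = 0.33) and 0.24 (adjusted p = 0.21). Whether position has a part in these values was not tested.

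The genes around glutamine, glutamate, 2-oxoglutarate and 2-hydroxyglutarate went partly the other way. The list mixes enzymes that make 2-oxoglutarate with enzymes that use it, so its counts give no direction of 2-oxoglutarate supply. Of 16 tested genes 7 rose and 3 fell with hypoxia in WT cells, with a median of 0.32, and 7 rose and 2 fell in FIH-KO cells, with a median of 0.13. Gpt2, the mitochondrial alanine transaminase, held 28.9 and 46.3 CPM in WT normoxia and 236 and 227 in WT hypoxia, a log2 fold change of 2.62 (SE 0.19, adjusted p = 4.8e-06). In FIH-KO cells it rose from 30.3 and 30.3 CPM to 121 and 95.7, a change of 1.84 (SE 0.19, adjusted p = 7.6e-05). Glud1, glutamate dehydrogenase, fell by 0.54 (adjusted p = 0.0044) and 0.67 (adjusted p = 0.0027) in WT and FIH-KO cells, and Got2, the mitochondrial aspartate transaminase, by 0.46 (adjusted p = 0.01) and 0.38 (adjusted p = 0.047).

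Between the genotypes, 8 of these 16 genes were lower in FIH-KO cells and 1 higher in normoxia, and likewise 8 and 1 in hypoxia, with medians of -0.35 and -0.41. Over all tested genes 13% were lower and 15.2% higher in normoxia, and 13.9% and 14.1% in hypoxia. Gls2, a liver-type glutaminase, held 14.0 and 13.5 CPM in WT and 3.39 and 4.76 in FIH-KO cells in normoxia, and 39.1 and 39.4 in WT and 9.87 and 5.86 in FIH-KO cells in hypoxia. Its log2 fold changes in FIH-KO cells were -1.75 (SE 0.24, adjusted p = 0.00035) and -2.32 (SE 0.23, adjusted p = 3.3e-05). Bcat1, the cytosolic transaminase of branched-chain amino acids, was lower by 1.05 (adjusted p = 0.00035) and 1.09 (adjusted p = 0.00028). Psat1, a transaminase of serine synthesis that yields 2-oxoglutarate, was lower by 1.05 (adjusted p = 0.00036) in normoxia and by 0.65 (adjusted p = 0.0063) in hypoxia. Oat, ornithine aminotransferase, was the gene that was higher, by 0.55 (adjusted p = 0.015) and 0.65 (adjusted p = 0.0065).

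Of 11 tested genes for citrate and malate export and the malate-aspartate shuttle, 5 rose and 3 fell with hypoxia in WT cells, and 4 rose and 2 fell in FIH-KO cells, with medians of 0.12 and 0.10. Slc25a12 and Slc25a13, the mitochondrial aspartate-glutamate carriers that work with Mdh1 and Mdh2 in the shuttle, fell by 1.17 (SE 0.11, adjusted p = 2.8e-05) and 1.08 (SE 0.11, adjusted p = 3.6e-05) in WT cells. In FIH-KO cells they fell by 0.61 (adjusted p = 0.0034) and 0.47 (adjusted p = 0.013). Acly, ATP-citrate lyase, and Acss2, an acetyl-CoA synthetase, rose in WT cells by 0.99 (adjusted p = 0.00025) and 1.57 (adjusted p = 0.00026). In FIH-KO cells these 2 genes rose by 0.94 (adjusted p = 0.00075) and 1.27 (adjusted p = 0.0012). Between the genotypes 3 of the 11 were higher and 2 lower in normoxia, and 4 higher and 0 lower in hypoxia, beside 15.2% and 13%, and 14.1% and 13.9%, of all genes, with Acss2 higher by 1.60 (adjusted p = 0.00026) and 1.30 (adjusted p = 0.00063). Of 9 tested genes for succinate dehydrogenase assembly and for lipoate and NADPH cofactors, 3 fell and 0 rose with hypoxia in WT cells, with a median of -0.49, and 1 fell and 0 rose in FIH-KO cells, with a median of -0.19. Between the genotypes 0 were higher and 2 lower in normoxia, and 0 higher and 1 lower in hypoxia, beside 13% and 13.9% of all genes called lower, with Sdhaf2, an assembly factor of succinate dehydrogenase, lower by 0.54 (adjusted p = 0.0081) and 0.58 (adjusted p = 0.0054).

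**Figure D5:**
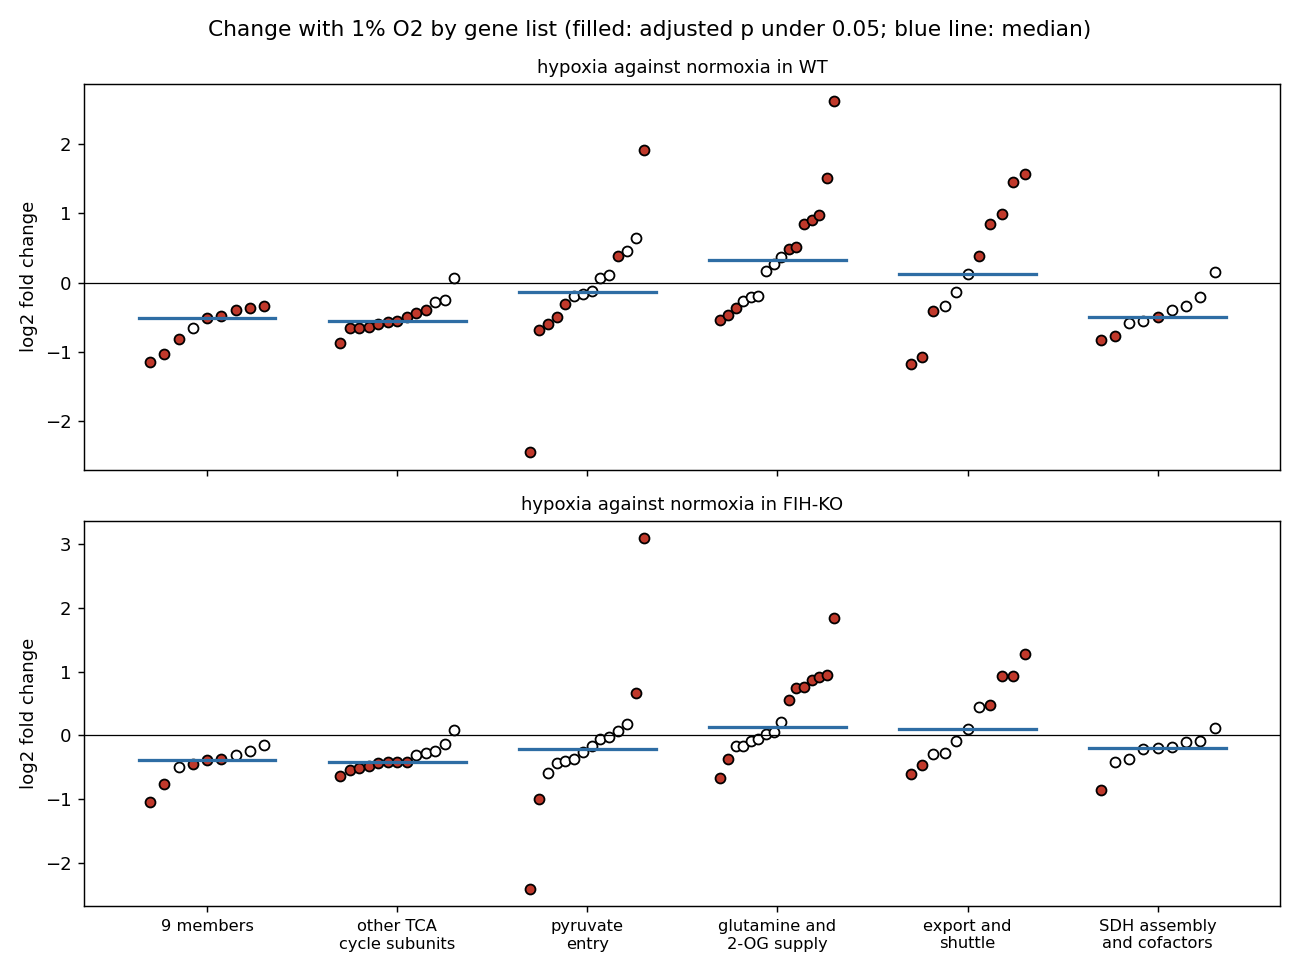
Log2 fold change with hypoxia (y axis) for each tested gene of the 9 enzymes and of 5 further lists, in WT (top) and FIH-KO cells (bottom); filled points had an adjusted p under 0.05 and lines mark the medians. The enzymes and the other cycle subunits lie below 0 with 1 exception in each panel, while the glutamine and export lists spread to both sides.

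The gene closest in pattern to each enzyme was found by Pearson's r of log2 CPM over the 8 libraries among 13924 other tested genes. It was Eps8 for Fh1 (0.998), Rogdi for Idh2 (0.996), Skida1 for Ogdh (0.995), Cplx2 for Sucla2 (0.994), Cisd1 for Cs (0.991), Card10 for Idh3a (0.990), Zbtb42 for Idh1 (0.990), Rbm14 for Mdh2 (0.986) and Mtfr2 for Mdh1 (0.986). All these values come from the same 8 libraries in 4 groups, so that a gene with the same group differences scores high, and they are given as a description.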

How the data were processed

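RNA-Seq was performed on 8 libraries of LLC cells (WT and FIH-KO, 21% and 1% O2, 2 libraries per group) made with a stranded mRNA kit. The authors used STAR for the alignment (GRCm39) and HTSeq for read counts per gene, which were deposited as raw counts of whole reads. The submitters' processing notes also list GRCm38. Versions, annotation release and strand setting are not given in the sources used here. Totals ran from 14519731 to 18177016 counts, and the spread between 2 libraries, not counting error, sets the precision.

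Groups came from the sample labels. In R 4.3.3 with edgeR 4.0.16, 13933 genes passed filterByExpr by group, counts were scaled by TMM (factors 0.983 to 1.02), and 1 quasi-likelihood model held a mean per group, with Benjamini-Hochberg adjustment and a threshold of 0.05. The common biological coefficient of variation was 11.7%. Log2 CPM used a prior count of 2. Positions and lengths came from GENCODE vM39 (52610 of 53700 identifiers matched). The script was tested on simulated data.

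The enzymes and gene lists were chosen with earlier results of these data known. All 9 enzymes are named in each comparison, and of each list at most the 3 called genes with the smallest adjusted p per direction and comparison may be named, with counts for the whole list. Dlst, Idh3b, Idh3g and Me1 are named besides these, as partner subunits or for their position. Of 85 list symbols, 84 were found in the table, and Kgd4 was not. Nnt has 2 identifiers, of which 1 was tested, and Me3 did not pass the filter. The alternatives were DESeq2 1.42.0, RLE or upper-quartile factors, no filter beyond 1 read, a minimum of 10 counts in all libraries, a fit of the 4 compared libraries alone, the replicate number as a block, and each library left out in turn.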

Additional observations from a re-analysis of the deposited data

How the results depend on the processing

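Leaving out each library in turn moved the number of the 9 enzymes called between 1 and 2 for FIH-KO against WT in normoxia, 2 and 4 in hypoxia, 4 and 9 for hypoxia in WT and 2 and 5 for hypoxia in FIH-KO cells. Over all genes the counts moved between 1735 and 4672, 2170 and 3887, 2124 and 5270, and 1097 and 2604 in the same order, and between 0 and 39 for the interaction. With only the 4 libraries of the comparison, hypoxia in FIH-KO cells gave 2 enzymes and 1289 genes. The interaction was called for 143 genes with no filter and for 37 with DESeq2. With the replicate number as a block it was called for 5 genes, and the block changed no call of the 9 enzymes. Same-numbered libraries deviated from their group means with correlations from -0.0104 to 0.193, so the numbers were not taken to pair the samples. Without a filter Cs in normoxia moved from -0.01 to 0.0053 between the genotypes. Left-out libraries also turned the sign of some values that were not called: in FIH-KO against WT in hypoxia Mdh2 ranged from -0.14 to 0.0037, Idh2 from -0.040 to 0.24, Fh1 from -0.21 to 0.041, Ogdh from -0.13 to 0.38, Sucla2 from -0.024 to 0.43 and Mdh1 from -0.14 to 0.32. With hypoxia in FIH-KO cells Idh1 ranged from -0.88 to 0.10 and Mdh1 from -0.39 to 0.066, and the interaction of Idh1 from -0.18 to 0.80. The cause was not tested. The calls of Idh3a by genotype, of Idh1 in hypoxia, of Ogdh and Idh2 with hypoxia in both genotypes, and of Sucla2 and Fh1 in WT cells held under every alternative. With 2 libraries per group, small differences cannot be seen.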
